A study of Saccharomyces cerevisiae with 3 samples.

Results

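The genes described here are those for haem synthesis in Saccharomyces cerevisiae, together with HMX1, which encodes haem oxygenase, and ROX1, which encodes a haem-dependent repressor. The list holds 10 genes, taken by name for their place in haem metabolism, with earlier results of these data known. Through the gene symbols of the platform annotation, 9 of the 10 had a probe, each a single one, among 5203 named genes on the array. HEM4 (YOR278W, uroporphyrinogen III synthase) had no probe under its symbol and was not analysed here. Values were present on all 3 arrays for 8 of the 9 genes and on 2 arrays for HMX1.

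Haem is an iron-containing porphyrin that serves as a cofactor of cytochromes, catalases, sterol synthesis enzymes and flavohaemoglobin. Its synthesis in yeast starts in the mitochondrial matrix, where Hem1 joins glycine and succinyl-CoA, continues in the cytosol, and ends at the mitochondrial inner membrane, where ferrochelatase inserts iron. Haem is also a signal of oxygen and respiration: it acts on the activators Hap1 and Hap2/3/4/5, and through Hap1 on ROX1, whose product keeps hypoxic genes off in air.

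Each array compared treated with untreated cells of strain S288C, the standard haploid laboratory strain, which as background carries a transposon insertion in HAP1 that impairs the Hap1 activator. Exponentially growing 100 ml cultures in a rich medium with 2% glucose (YPD) at 25 C received 1.5 uM fluazinam, a dinitroaniline fungicide known as an uncoupler of oxidative phosphorylation, for 2 h; controls grew for 2 h without it. On all 3 arrays, stated to be independent biological samples, treated cDNA carried Cy5 and untreated cDNA Cy3, so a dye effect on a single gene cannot be told apart from treatment. Whether each untreated RNA came from its own culture was not stated, and the p-values then measure only the spread between these arrays.

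The deposited values are log ratios with no stated base or direction. Here they are taken to be log2, with treated cells in the numerator; if the authors divided the other way, every sign below turns. A value was present for 4463 to 5245 of the 6272 probes per array, and 3802 genes or unnamed probes with values on all 3 arrays were tested together. No intensities were given, so the signal behind each ratio is unknown, and the number of arrays limits the precision. Of the tested features, 7.86% passed a Benjamini-Hochberg adjusted p of 0.05 and 4.47% did so as lower in treated cells. The number passing depended on which arrays were kept. It was 299 with all arrays, 11 without replicate 1, 657 without replicate 2 and 0 without replicate 3. Across the 3802 features the arrays correlated at 0.51 (replicates 1 and 2), 0.63 (1 and 3) and 0.43 (2 and 3). Without replicate 3 every gene lost its call, and without replicate 1 nearly every gene did. Calls lost there, or gained without replicate 2, are therefore not by themselves particular to a gene.

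The question put to the haem genes was how their transcripts stood in fluazinam-treated cells. HEM15, the gene for ferrochelatase, was lower in treated cells and was the only one of the 8 tested genes to pass the threshold. The next lowest were HEM1 and HEM13, which did not pass. HEM14, for protoporphyrinogen oxidase, was the only one with a mean above 0 and was the highest of the 8 on every array. HMX1 was above 0 on both arrays that measured it. The median of the 8 means was -0.38, beside -0.0049 for all features tested, and the 8 genes' array medians were -0.42, -0.40 and -0.35 on replicates 1 to 3. Of the 8, 7 had a mean below 0, where 50.2% of all features did. At an unadjusted p of 0.05, 3 of the 8 were lower (HEM1, HEM13 and HEM15), where 17.0% of all features were; in either direction it was 3 of 8 against 29.7%. On all 3 arrays 5 of the 8 were below 0 (HEM1, HEM2, HEM3, HEM13 and HEM15), where 27.1% of all features were, and 1 was above 0 (HEM14), where 25.2% were.

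**Figure D1:**
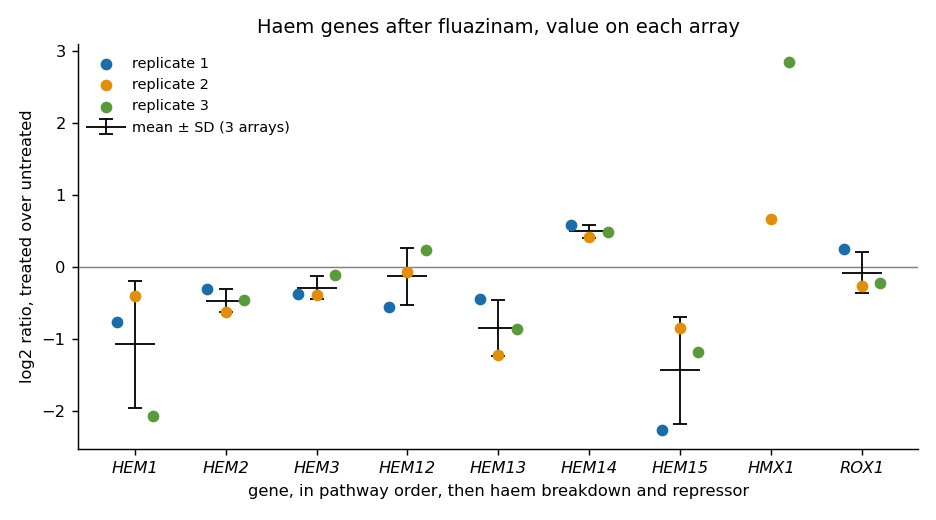
Log2 ratio of treated over untreated cells (vertical axis) for the 9 haem genes with a probe, in pathway order and then HMX1 and ROX1; points are single arrays, and bars show the mean ± SD of genes measured on all 3. HEM14 lies above 0 on each array, HEM1, HEM2, HEM3, HEM13 and HEM15 lie below 0 on each, and HMX1 has values of 0.67 and 2.84 on replicates 2 and 3.

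HEM1 (YDR232W) encodes 5-aminolevulinate synthase, the mitochondrial enzyme that opens the pathway. Its log2 ratios were -0.76, -0.40 and -2.07 on replicates 1 to 3. All were below 0, and replicate 3 stood far below the other two. The mean was -1.08 ± 0.88 (SD, n = 3; limma adjusted p = 0.106), so HEM1 did not pass. Leaving out replicate 3 gave -0.58 (adjusted p = 0.341), and leaving out replicate 2 gave -1.42, which passed (adjusted p = 0.0180). Of all features, 0 passed without replicate 3 and 657 without replicate 2. The value also moved with slide position: probes of the sub-grid that holds HEM1, as inferred from probe numbers, had medians of -0.48, -0.22 and -0.58. Relative to them HEM1 was at -0.28, -0.18 and -1.49, with a mean of -0.65 (adjusted p = 0.208). The part of position in the value was not tested beyond this subtraction.

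The next enzymes work in the cytosol. HEM2 (YGL040C), for 5-aminolevulinate dehydratase, had log2 ratios of -0.32, -0.63 and -0.47, a mean of -0.47 ± 0.16 (adjusted p = 0.262). HEM3 (YDL205C), for porphobilinogen deaminase, had -0.39, -0.39 and -0.11, a mean of -0.30 ± 0.16 (adjusted p = 0.477). As deposited, both were below 0 on every array by small amounts, and neither passed. Their SDs were matched or undercut by only 8.39% and 8.73% of the tested features, an agreement that did not hold after the step below. The sub-grid of HEM2 was low as well, with medians of -0.48, -0.40 and -0.13. Subtracting them left HEM2 at 0.16, -0.23 and -0.33, on both sides of 0, with a mean of -0.13 (adjusted p = 0.730). That of HEM3 was higher, and the same step moved HEM3 to -0.82, -0.49 and -0.14. These values span 0.68, against 0.28 as deposited, with a mean of -0.48 (adjusted p = 0.221).

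HEM12 (YDR047W), for uroporphyrinogen decarboxylase, had log2 ratios of -0.56, -0.07 and 0.23. Its arrays lay on both sides of 0, the mean was -0.13 ± 0.40 (adjusted p = 0.777), and the sign of the mean turned without replicate 1 (0.078) and with sub-grid medians subtracted (0.063). No direction can be given for it.

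HEM13 (YDR044W) encodes coproporphyrinogen III oxidase, an oxygen-requiring step and a classical target of Rox1 repression. Its log2 ratios were -0.45, -1.23 and -0.87, all below 0, with the lowest on replicate 2. The mean was -0.85 ± 0.39 (adjusted p = 0.0976), a level 1.80-fold lower in treated cells that did not pass. Unlike HEM1, HEM2 and HEM15, HEM13 kept its size with sub-grid medians subtracted (-0.88, adjusted p = 0.0533). Without single arrays the mean ranged from -1.05 to -0.66.

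HEM14 (YER014W) encodes protoporphyrinogen oxidase, which makes protoporphyrin at the mitochondrial inner membrane. Its log2 ratios were 0.58, 0.41 and 0.48. These 3 values span 0.18, and an SD as small as theirs (0.09) or smaller was found for 3.42% of the tested features. With sub-grid medians subtracted the values spread to 0.57, 0.20 and 0.83, a span of 0.62, so the close agreement holds for the deposited values and not after that step. The mean of 0.49 ± 0.09 is a 1.40-fold higher level, and it passed neither with limma's moderation of the variances (adjusted p = 0.240) nor without it (adjusted p = 0.277). Its mean was 0.44 to 0.53 over the 15 alternatives, none past the threshold. Several of them change only the test or threshold and so could not move the mean. In the reference annotation (R64) the gene overlaps BUD25 (YER014C-A), which had no probe under its symbol. The strand and sequence of the HEM14 probe were not used here, so transcripts of the overlapping gene may share its signal.

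HEM15 (YOR176W) encodes ferrochelatase, which inserts iron into protoporphyrin and completes haem. Its log2 ratios were -2.27, -0.86 and -1.19, all well below 0, and lowest on replicate 1. The mean was -1.44 ± 0.74 (adjusted p = 0.0473), a level 2.71-fold lower in treated cells, and 3.68% of tested features had a mean as low or lower. The call lies close to the threshold. It was lost without replicate 1 (-1.02, adjusted p = 0.195) and without replicate 3 (-1.57, adjusted p = 0.0968), where 11 and 0 features passed. Without replicate 2, where 657 features passed, the adjusted p was 0.00420. Its sub-grid had medians of -0.51, -0.28 and -0.10, and subtracting them gave -1.14 (adjusted p = 0.0514).

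**Figure D2:**
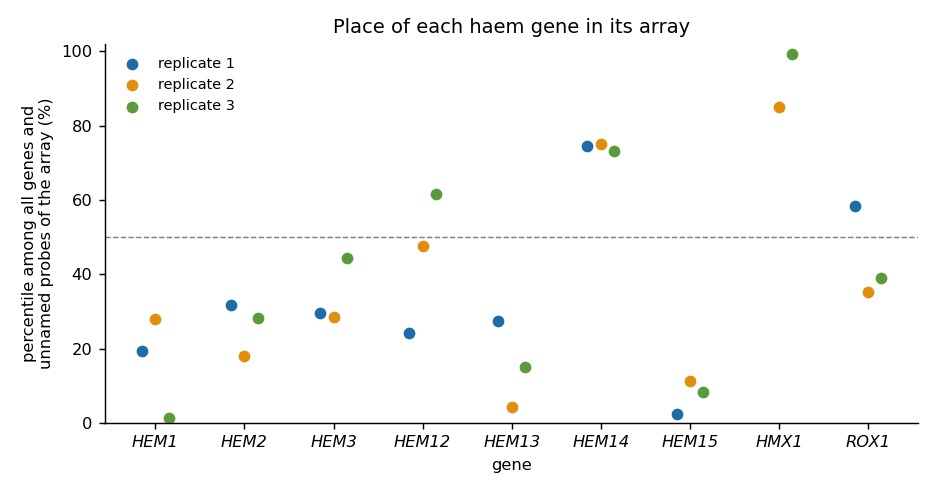
Percentile of each haem gene (vertical axis, in percent) among all genes and unnamed probes with a value on the same array; each point is 1 array. HEM14 stands at percentiles 73.3 to 75.0, HEM15 at 2.42 to 11.1, and HEM1 spreads from 1.26 to 27.8.

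Ranked within each array, which removes differences in scale between arrays, HEM15 was at percentiles 2.42, 11.1 and 8.33 of all features with a value, and HEM13 at 27.4, 4.33 and 15.1. HEM14 was at 74.6, 75.0 and 73.3. The lowest haem gene differed between arrays: it was HEM15 on replicate 1, HEM13 on replicate 2 and HEM1 on replicate 3. The plot of percentiles shows that HEM14 held its place while the lowest genes exchanged theirs.

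In order of their means the 8 genes ran HEM15, HEM1, HEM13, HEM2, HEM3, HEM12, ROX1 and HEM14. With sub-grid medians subtracted they ran HEM15, HEM13, HEM1, HEM3, ROX1, HEM2, HEM12 and HEM14, so the middle of the order depended on that step. The differences that follow are of the values as deposited. Between HEM15 and HEM1 the difference was 0.36 ± 1.20 (SD over arrays), and between HEM1 and HEM13 it was 0.23 ± 1.02, so these 3 were not separated beyond their spread. HEM2 lay above HEM13 on all 3 arrays, by 0.38 ± 0.24. HEM3 over HEM2 (0.18 ± 0.22), HEM12 over HEM3 (0.16 ± 0.29) and ROX1 over HEM12 (0.05 ± 0.67) were within their spread. HEM14 lay above ROX1 on all 3 arrays by 0.57 ± 0.21.

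HEM14 and HEM15 encode consecutive enzymes of the same membrane, and their mean log2 ratios lay furthest apart; on replicate 2 HEM13, and on replicate 3 HEM1, was further below HEM14 than HEM15 was. HEM14 exceeded HEM15 by 2.86, 1.27 and 1.66 on replicates 1 to 3, a mean of 1.93 ± 0.83. An exact two-sided sign-flip permutation test over 3 arrays cannot give a p under 0.25, so these differences between genes are given as descriptions.

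HMX1 (YLR205C) encodes the haem oxygenase of the endoplasmic reticulum, which breaks haem down and releases its iron, and is a known target of the iron regulator Aft1. It had no value on replicate 1 and log2 ratios of 0.67 and 2.84 on replicates 2 and 3. Both lie above 0, at percentiles 85.0 and 99.2 of their arrays, but they differ by 2.17. HMX1 could be tested only when features with values on 2 arrays were admitted; its mean of 1.75 then did not pass (adjusted p = 0.123), where 4.80% of 4979 features passed. Subtracting sub-grid medians left it at 0.84 and 2.99.

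The list set beside HMX1 held other genes that Aft1 or Aft2 induces when iron is scarce, and the AFT1 and AFT2 genes themselves. Of 24 listed, 19 were measured on all arrays. All 19 had a mean above 0, where 50.2% of all features had a mean below 0. Of the 19, 5 rose, where 3.39% of all features did, and 14 did not pass. The median of the 19 was 1.10, and by array it was 1.40, 0.49 and 1.17. The list was not uniformly higher. The mean of ISU2 was 0.0079, and FET3 (-0.51), FTR1 (-0.098), FTH1 (-0.73) and FET5 were below 0 on replicate 2. FET3 had a mean of 0.80 (adjusted p = 0.256) and FTR1 of 0.45 (adjusted p = 0.421). These genes were named after their values were seen. Those that rose were the siderophore uptake genes FIT2 (3.74 ± 0.82), FIT3 (2.06 ± 1.06) and ENB1 (2.10 ± 0.95), the biotin transporter gene VHT1 (1.54 ± 0.82) and ISU1. ISU1, the scaffold on which mitochondrial iron-sulfur clusters form, had 1.40, 1.65 and 1.33 (mean 1.46 ± 0.17, adjusted p = 0.0277). ARN2, another siderophore transporter gene, was at 2.25 ± 1.68 (adjusted p = 0.0597). Of the 19, 11 were lowest on replicate 2, 3 on replicate 1 and 5 on replicate 3; ISU1 and VHT1 were highest on replicate 2, with VHT1 at 0.90, 2.47 and 1.27. The count of 5 was 1 without replicate 1, 10 without replicate 2 and 0 without replicate 3. All features that passed in these settings numbered 11, 657 and 0. VHT1 lost its call without any 1 of the arrays (adjusted p = 0.0572 to 0.0923). AFT1 had no probe under its symbol.

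ROX1 (YPR065W), the repressor gene, had log2 ratios of 0.25, -0.27 and -0.23. The arrays disagreed in sign, the mean was -0.08 ± 0.29 (adjusted p = 0.862), and it turned to 0.011 without replicate 2. With sub-grid medians subtracted all 3 arrays were below 0 (-0.25, -0.58 and -0.26), with a mean of -0.37 that did not pass (adjusted p = 0.311). Of 10 other regulators linked to haem or hypoxia, 6 were measured on all arrays, and 1 of the 6 fell, where 4.47% of all features did. TUP1, the corepressor that Rox1 and other repressors recruit, fell, with -1.84, -1.51 and -0.72 and a mean of -1.36 ± 0.58 (adjusted p = 0.0434). That call was lost without replicate 1 (-1.11, adjusted p = 0.187) and without replicate 3 (-1.68, adjusted p = 0.0652), where 11 and 0 features passed. It was kept with sub-grid medians subtracted (-1.16, adjusted p = 0.0305). CYC8, its partner, was at -0.47 ± 0.36 (adjusted p = 0.292), and was named after its value was seen.

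The activator genes did not pass, where 7.86% of all features did. HAP1 was at 0.08, 0.09 and 0.05 (mean 0.08 ± 0.02, adjusted p = 0.866), close to 0 on every array. HAP4, the regulated subunit of the Hap2/3/4/5 complex, was at 0.39 ± 0.41 (adjusted p = 0.385) and HAP5 at 0.71 ± 0.38 (adjusted p = 0.140). The median of all 6 measured regulators, with TUP1 and CYC8 included, was 0.23.

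Hypoxic genes, which Rox1 or Mot3 represses in air, centred on a median of 0.06. Of the 7 measured on all arrays none passed, where 7.86% of all features did. At an unadjusted p of 0.05, 1 was higher, where 12.7% of all features were, and 1 was lower, where 17.0% were. CYC7, the hypoxic isoform of cytochrome c, had 0.80, 1.10 and 4.04 (mean 1.98 ± 1.79, adjusted p = 0.0855). All 3 lie above 0, but replicate 3 carried most of the mean, which was 0.95 without it (adjusted p = 0.161). CYC7 passed without replicate 2 (2.42, adjusted p = 0.00229), as 657 features did. ANB1, the hypoxic isoform of the translation factor eIF5A, lay on the other side, with -0.72, -0.87 and -1.48 (mean -1.03 ± 0.40, adjusted p = 0.0678). These and HEM13 are textbook Rox1 targets, and CYC7 was above 0 on every array while ANB1 and HEM13 were below.

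Genes that haem activates through Hap1 or Hap2/3/4/5 had a median of -0.51 over 11 measured, 9 of them with a mean below 0, where 50.2% of all features were. By array the median was -1.08, -0.24 and -0.63, and 8 of the 11 were lowest on replicate 1. COX4 (-2.36, 0.16 and -1.75) and QCR8 (-1.16, 1.20 and 0.34) were among those with arrays on both sides of 0. Of the 11, 2 fell, where 4.47% of all features did, and 9 did not pass. YHB1, the flavohaemoglobin that detoxifies nitric oxide, had -1.98, -2.72 and -1.41 (mean -2.03 ± 0.65, adjusted p = 0.0265). CYT1, cytochrome c1 of the respiratory chain, had -2.92, -1.16 and -1.60 (mean -1.89 ± 0.92, adjusted p = 0.0349). Both were below -1 on every array. Both kept their calls with sub-grid medians subtracted and lost them without replicate 1 and without replicate 3, where the count of 2 became 0. Among all features, 11 and 0 passed in those 2 settings. CYC1, the aerobic isoform of cytochrome c, was at -0.49 ± 0.24 (adjusted p = 0.259), below 0 on every array.

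Among proteins that carry haem, 11 of 17 listed genes were measured on all arrays, with a median of -0.31, and the 2 that fell were again YHB1 and CYT1, which stand in both lists, where 4.47% of all features fell. The cytosolic catalase CTT1 (0.20 ± 0.92, adjusted p = 0.754) and cytochrome c peroxidase CCP1 (-0.05 ± 0.90, adjusted p = 0.940) had arrays on both sides of 0. CTA1, the peroxisomal catalase, and CYB2, lactate dehydrogenase, had a value on 1 array each, 0.53 on replicate 3 and 1.09 on replicate 2. ERG11, a sterol demethylase, had no probe under its symbol.

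**Figure D3:**
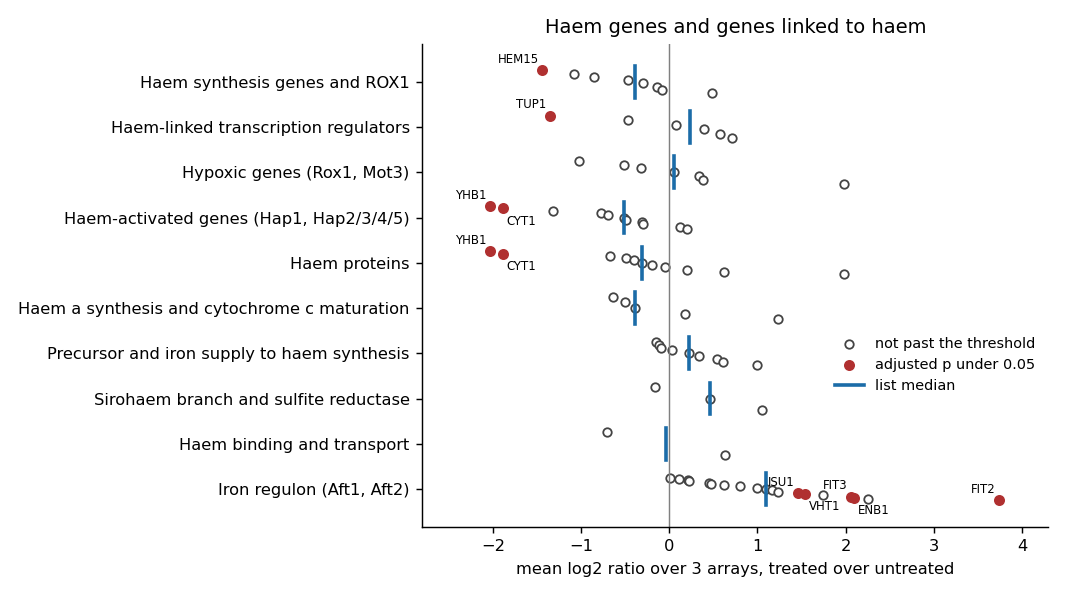
Mean log2 ratio of treated over untreated cells (horizontal axis) of each gene measured on all 3 arrays, by list; filled points passed an adjusted p of 0.05 and blue lines are list medians. HEM15, TUP1, YHB1 and CYT1 passed as lower, and the 5 genes that passed as higher all stand in the iron regulon.

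Genes that supply or use the pathway's intermediates did not pass, where 7.86% of all features did. HEM25, the carrier that brings glycine into mitochondria for Hem1, had 0.43, 0.55 and 0.85 (mean 0.61 ± 0.21, adjusted p = 0.169), all above 0 where HEM1 itself was below. MRS4, a mitochondrial iron carrier and an Aft1 target, was at 1.90, 0.64 and 0.45 (mean 1.00 ± 0.79, adjusted p = 0.111). The list of precursor and iron supply had a median of 0.23 over 9 measured, with 1 higher at an unadjusted p of 0.05, where 12.7% of all features were. In the branch from uroporphyrinogen III to sirohaem, the cofactor of sulfite reductase, MET1 was at -0.41, 0.82 and 0.97 and MET8 had 1.93 on replicate 3 alone. MET10, a subunit of that reductase, was at 1.05 ± 1.13 (adjusted p = 0.154), with its highest value, 2.34, on replicate 2.

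Conversion of haem to haem a is carried out by COX10 and COX15. COX10 was at -0.44, -0.99 and -0.07 (mean -0.50 ± 0.46, adjusted p = 0.291) and COX15 at -0.66, -1.14 and -0.13 (mean -0.64 ± 0.50, adjusted p = 0.198). Both were below 0 on every array and in the same order of arrays, and neither passed. CYC3, the lyase that attaches haem to cytochrome c, lay on the other side with 1.85, 0.49 and 1.36 (mean 1.23 ± 0.69, adjusted p = 0.0650). None of the 5 genes of this list measured on all arrays passed, where 7.86% of all features did. At an unadjusted p of 0.05, 1 was higher, where 12.7% of all features were. Of the genes for haem handling, DAP1, a haem-binding partner of sterol enzymes, was at -0.70 ± 0.78 (adjusted p = 0.228), and PUG1, a porphyrin transporter of the plasma membrane, at 0.63 ± 0.95 (adjusted p = 0.311).

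The genes nearest to the highest and the lowest haem gene over the 3 arrays were sought among 3573 other named genes by the root mean square difference of log2 ratio. For HEM15 they were RPL16B (0.09), NSR1 (0.10) and RPS11A (0.13). RPL16B and RPS11A encode ribosomal proteins, and NSR1 a nucleolar protein of ribosome assembly. Each was lowest on replicate 1 and least low on replicate 2, as HEM15 was. That likeness follows from choosing genes by nearness on these same arrays. RPL16B, for example, had -2.39, -0.79 and -1.13. NSR1 (limma adjusted p = 0.0418) and RPS11A (adjusted p = 0.0421) passed, and RPL16B did not (adjusted p = 0.0574). For HEM14 they were YJR056C (0.03), GUF1 (0.03) and ACF2 (0.04), none of which passed. With 3 arrays, likeness is a description of these arrays.

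**Figure D4:**
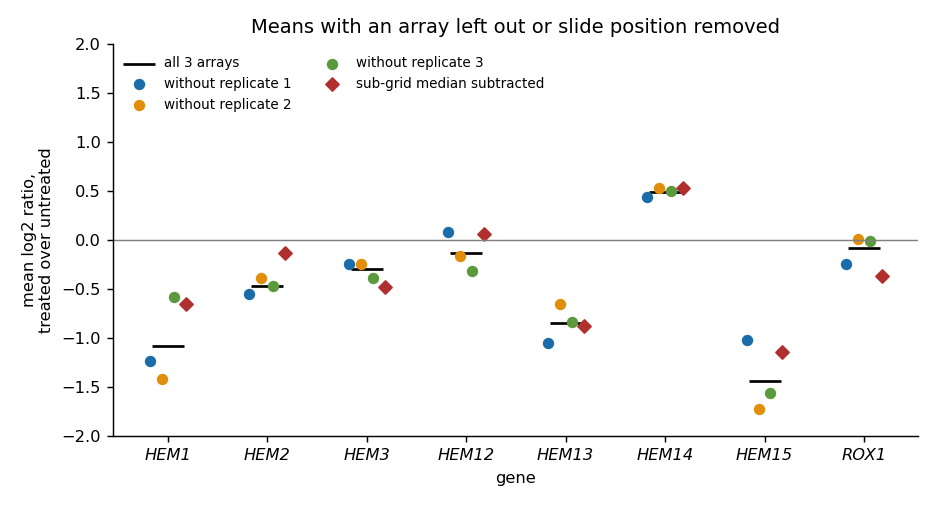
Mean log2 ratio of treated over untreated cells (vertical axis) of the 8 haem genes measured on all arrays, with all 3 arrays (bars), without each array (circles) and with the median of the probe's sub-grid subtracted (diamonds). HEM1 moves from -1.08 to -0.58 without replicate 3, HEM15 from -1.44 to -1.02 without replicate 1, and HEM14 stays between 0.44 and 0.53.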

How the data were processed

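The authors deposited log2 ratios as read here (base and direction not stated), LOWESS-normalized within each array from unflagged spots per the labels; no scanner, background correction or genome build is named in them. Base 10 would put values from -4.48 to 5.50 beyond a scanner's range; a natural log would make folds larger. Of 6272 probes, 5308 had 1 gene symbol, 0 several and 964 none. Probes of a gene were averaged per array, and 3802 features with values on all 3 arrays were tested against 0 with limma 3.58.1 (lmFit with an intercept, eBayes, 5.10 prior degrees of freedom) in R 4.3.3, with Benjamini-Hochberg adjustment over all features and a threshold of 0.05. The code was tested on simulated data. Alternatives covered centring, scale, quantile normalization, moderation, weights, thresholds, a 1.5-fold minimum, first probes, genes on at least 2 arrays, medians of the 32 inferred sub-grids, and each array left out.

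The haem genes and gene lists were chosen with earlier results of these data known. Named were all 10 genes, each list's genes past the threshold and its 2 largest means, a fixed set of haem-linked genes, and the 3 nearest genes to the highest and lowest member.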

Additional observations from a re-analysis of the deposited data

How the results depend on the processing

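Over 15 alternatives for each of the 8 haem genes, 108 values kept direction and side of the threshold. Of the other values, 7 lost a call, 2 gained one and 3 turned sign. Several alternatives change only the test, the threshold, the probe chosen or the features admitted. Each haem gene has a single probe, so these left its mean as it was and could not turn its direction. For genes not called, a stricter threshold could not change the side either. HEM12 turned to 0.063 with sub-grid medians subtracted and ranged from -0.32 to 0.078 over the arrays left out; ROX1 ranged from -0.25 to 0.011 over them, turning without replicate 2, and was at -0.37 with sub-grid medians subtracted. HEM15 (-1.44) lost its call with genes on at least 2 arrays, without moderation, at an adjusted p of 0.01, against a 1.5-fold change and with sub-grid medians subtracted (-1.14). It also lost its call without replicate 1 and without replicate 3, and ranged from -1.73 to -1.02 over the arrays left out. HEM1 ranged from -1.42 to -0.58 over them and passed at -1.42; HEM13 (-0.85) passed at an adjusted p of 0.1. Haem genes past the threshold numbered 1, and 2 at an adjusted p of 0.1. The number was 0 in the first 5 settings named for HEM15, and 0 to 2 over arrays left out. The median of the 8 haem genes (-0.38) became -0.30 with HMX1 admitted, -0.42 with sub-grid medians subtracted and -0.43 to -0.32 over arrays left out.

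All features past the threshold numbered 299, 1 without moderation (1129 at an unadjusted p of 0.05 with moderation), 0 at 0.01, 715 at 0.1, 4 against 1.5-fold, and 0 to 657 over arrays left out. Without moderation, at 0.01 and against 1.5-fold, the lists' falls became 0; TUP1 also lost its call with genes on at least 2 arrays. Over arrays left out, falls were 0 to 1 for regulators, 0 to 3 for haem-activated genes and 0 to 2 for haem proteins. For hypoxic genes, 1 fell with quantile normalization, at 0.1 and with sub-grid medians subtracted. CYC7 stands among both the hypoxic genes and the haem proteins, and was the 1 rise of each list at 0.1 and without replicate 2. Over arrays left out, rises in both lists were 0 to 1. For haem a synthesis and cytochrome c maturation, 1 rose with quantile normalization, robust moderation and at 0.1, and 0 to 1 over arrays left out. Iron regulon rises (5) were 8 with quantile normalization and with sub-grid medians subtracted, 9 at 0.1, 1 against 1.5-fold, 0 without moderation and at 0.01, and 0 to 10 over arrays left out. The cause was not tested. No paired analysis was possible because all arrays form 1 group. Without intensities, signal over background could not be judged.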

Other observations

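HEM12 and HEM13 lie close together on chromosome IV, with 2 genes between them in the R64 annotation, RPC11, a subunit of RNA polymerase III, and BAP3, an amino acid permease. HEM12 exceeded HEM13 by -0.11, 1.17 and 1.09 on replicates 1 to 3, a mean of 0.72 ± 0.72. The genes between them were at -0.29 ± 0.56 for RPC11 and 0.13 ± 0.98 for BAP3, and neither passed. HMX1 stands between QRI5 and ENT2, whose values on replicate 3, where HMX1 was at 2.84, were 0.47 and -0.16. On replicate 2, where HMX1 was at 0.67, they were -1.33 and -0.55. HEM1, at -0.76, -0.40 and -2.07 on replicates 1 to 3, stands between COX20 and RTN1. COX20 was at -0.083, -0.080 and 0.93, and RTN1 at -0.29, -1.04 and 0.34. RTN1 was thus below HEM1 on replicate 2 and above it on replicates 1 and 3. These neighbours were looked up after the values of the haem genes were seen.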
